A study of Homo sapiens with 4 samples.

Results

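The 39 human HOX genes are described here in TE5 cells with and without extra ETS1. They were taken as every gene name made of HOX, a cluster letter from A to D and a number, which gave 39 of the 55764 gene names listed. TE5 is a cell line from a human oesophageal squamous cell carcinoma, and ETS1 is a transcription factor of the ETS family. RNA of 2 libraries labelled Control and 2 labelled ETS1 Overexpression was sequenced in bulk. Per the labels, both groups were made with lentiviral vectors packaged in HEK293T cells, a human embryonic kidney line. The Control cells carried the empty backbone and the ETS1 cells a vector that expresses human ETS1 from the CMV promoter, a strong viral promoter. Both groups were then grown under selection. The labels do not say whether the cells are a pool or 1 clone, or whether libraries 1 and 2 of a group came from separate cultures, so the p-values measure the spread between these libraries, which may be technical. The study's question, per its title, was what ETS1 changes in such cells, and the HOX genes were not named in it.

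HOX genes encode homeodomain transcription factors that tell cells where they lie along the body axis. They stand in 4 clusters, HOXA to HOXD, and are numbered by paralogue group from 1 at the anterior end to 13 at the posterior end. In the embryo, low-numbered genes switch on early and anteriorly and high-numbered genes late and posteriorly, and adult cells and many tumours keep part of such a code. HOX proteins bind DNA together with homeodomain cofactors of the TALE class (PBX, MEIS and PKNOX proteins). Polycomb complexes keep silent HOX genes shut, trithorax complexes keep active ones open, and retinoic acid is an upstream inducer.

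The libraries held between 40505238 and 57505840 reads, with the ETS1 libraries 1.35 times as deep on average. ETS1 itself was at 0.491 and 0.509 FPKM in the Control libraries, against 1.84 and 1.87 in the ETS1 libraries (FPKM, a read count divided by gene length and by library size), which fits the labels. All 7 squamous markers looked for, among them KRT5, KRT14 and TP63, stayed under 0.1 FPKM in each library, so the squamous label was not borne out at the RNA level. The mesenchymal markers VIM, CDH2 and FN1 were detected, and all 3 were called higher, beside 30.7% of all tested genes. They summed to 257.2 to 261.4 FPKM in the Control libraries, against 337.2 to 337.6 in the ETS1 libraries. Of 5 markers of simple epithelium, KRT8 was called higher (3.91 and 3.87 against 6.48 and 6.59 FPKM), KRT18 lower (10.2 and 10.6 against 8.35 and 8.29) and EPCAM neither, while CDH1, under the filter, was at 0.571 and 0.567 against 1.08 and 0.917 FPKM and KRT19 was near 0. These 5 summed to 16.1 to 16.3 FPKM in the Control libraries, against 16.8 to 16.9 in the ETS1 libraries. Fibroblast and endothelial markers were at or near 0, with the exception of COL1A1, at 2.06 to 2.88 FPKM, and the leukocyte markers PTPRC, CD3E and CD68 stayed under 0.1 FPKM in each library. Their part in the HOX results was not tested. In bulk RNA, fewer cells that express a gene and less RNA per cell cannot be told apart.

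The Control cells expressed HOX genes of all 4 clusters, with no restriction to an anterior or a posterior block. Of the 39 genes, 33 had a mean of at least 1 FPKM over the 4 libraries, with all 11 of HOXA, 9 of 10 in HOXB, 7 of 9 in HOXC and 6 of 9 in HOXD. In the Control libraries 1 gene exceeded a mean of 100 FPKM, 18 lay from 10 to under 100, 14 from 1 to under 10, and 6 under 1. HOXB9, a thoracic-level gene, led with 246 FPKM in both Control libraries and stood at percentile 98.8 of all tested genes. HOXA5, a gene of lung and cervical-level development, came next with 82.4 and 80.1 FPKM. HOXD13 followed at 44.1 and 45.1, HOXD10 at 41.0 and 41.6 and HOXB5 at 38.4 and 39.0 FPKM. By the mean of the Control libraries HOXB9 was thus about 3 times as abundant per length as the next HOX gene, and the 5 leading genes came from paralogue groups 5, 9, 10 and 13.

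**Figure D1:**
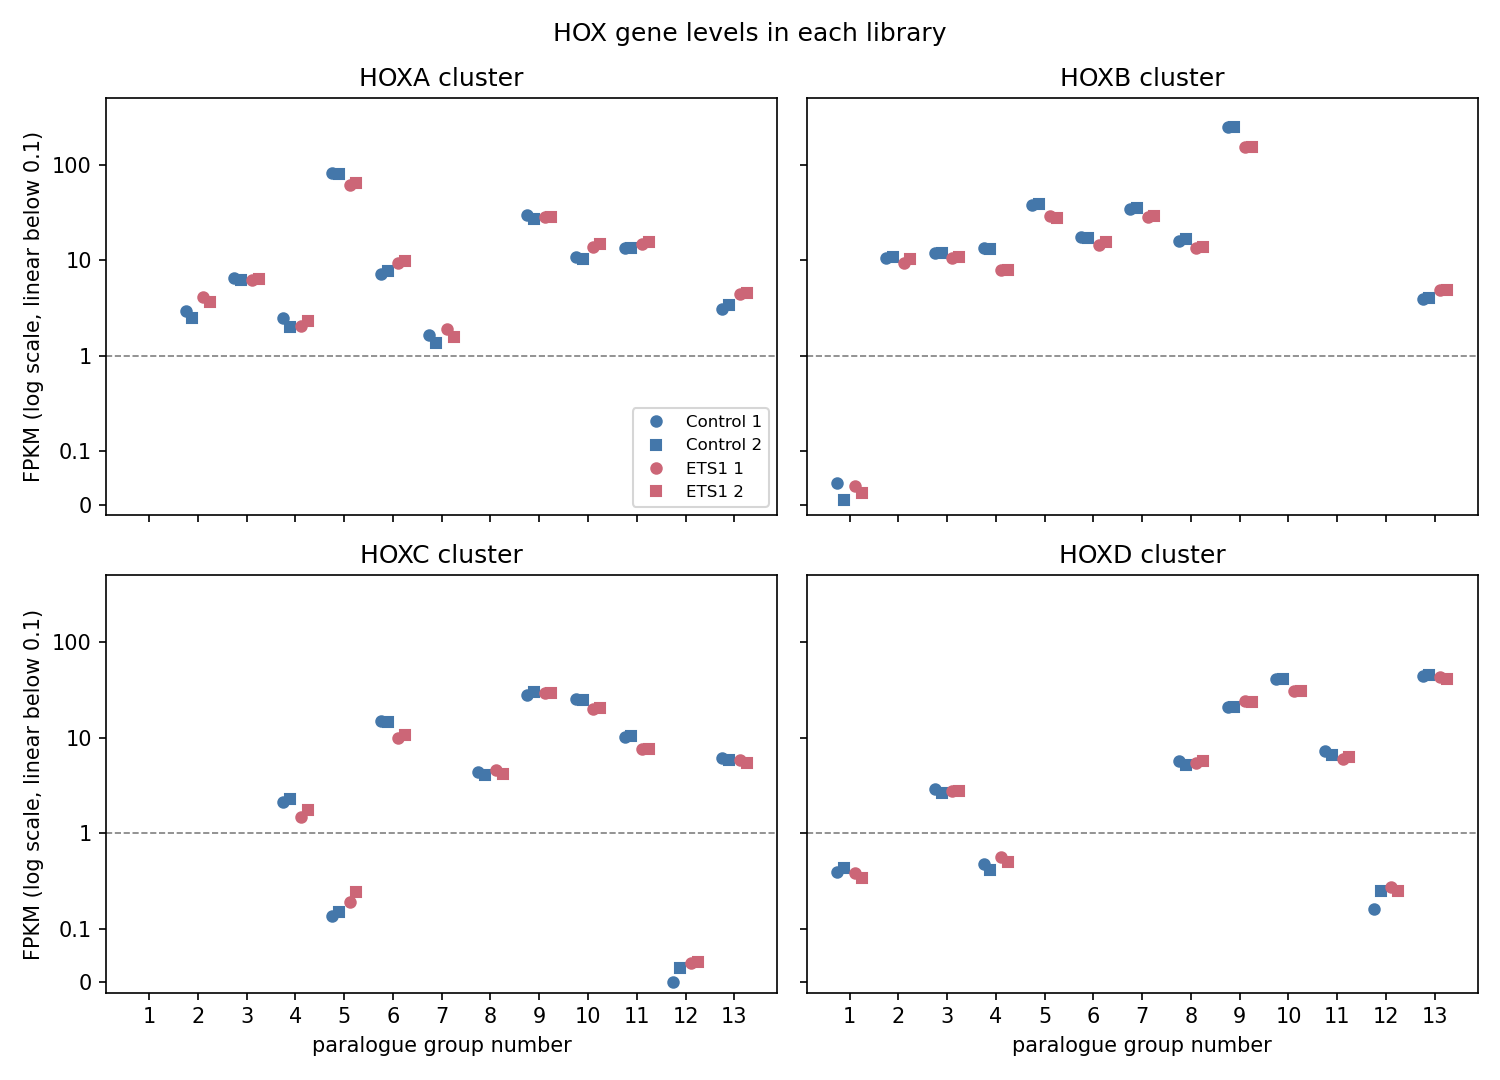
FPKM of 38 HOX genes in each library (vertical axis, logarithmic above 0.1 and linear below) against paralogue group number, with a panel per cluster; circles and squares are libraries 1 and 2, blue Control and red ETS1, and the dashed line is 1 FPKM. HOXB9 is the highest point in every library, and HOXB1 and HOXC12 lie near 0.

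Silent and near-silent members sat beside active ones. HOXB1, a hindbrain gene, was listed at 0.0400 and 0.00914 FPKM in the Control libraries, against 0.0352 and 0.0214 in the ETS1 libraries. HOXC12 had 0 and 4 reads in the Control libraries, against 7 in each ETS1 library, at most 0.0370 FPKM. HOXC5 was at 0.137 and 0.150 against 0.193 and 0.244 FPKM. HOXD1, HOXD4 and HOXD12 ranged from 0.162 to 0.571 FPKM over the 4 libraries. These 6 genes were not tested for a change. At the filter of 1 FPKM, HOXD1 and HOXD4 lay just outside with means over the libraries of 0.388 and 0.492, and HOXA7 and HOXC4 just inside with 1.63 and 1.91. For HOXD4, 80.5% of the exon bases are shared with another gene model on the same strand, so its reads cannot be assigned with certainty.

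Between the groups, HOX genes moved in both directions. The test was limma on log2(FPKM + 1) across all 14306 genes with a mean of at least 1 FPKM, and a gene counts as called when its Benjamini-Hochberg adjusted p is under 0.05. Of the 33 HOX genes tested, 7 were called higher in the ETS1 libraries (21.2%, against 30.7% of all tested genes) and 13 were called lower (39.4%, against 28.4% of all). The share called in either direction, 60.6%, lay close to the 59.1% of all tested genes. The median log2 fold change of the tested HOX genes was -0.07, beside 0.02 for all tested genes. The ETS1 libraries lay above both Control libraries for 7 of the 33 genes and below both for 17, while 9 overlapped. Over all tested genes 43.1% lay above and 38.9% below without overlap, 82.0% in all. The authors' deposited table calls 6 of the 33 higher and 13 lower, beside 25.3% higher and 25.9% lower among its 15683 genes with an adjusted p. Most changes were modest: from -0.68 for HOXB9 to 0.41 for HOXA10 on the log2 scale, with standard errors of 0.0244 to 0.0937 (n = 2 per group).

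**Figure D2:**
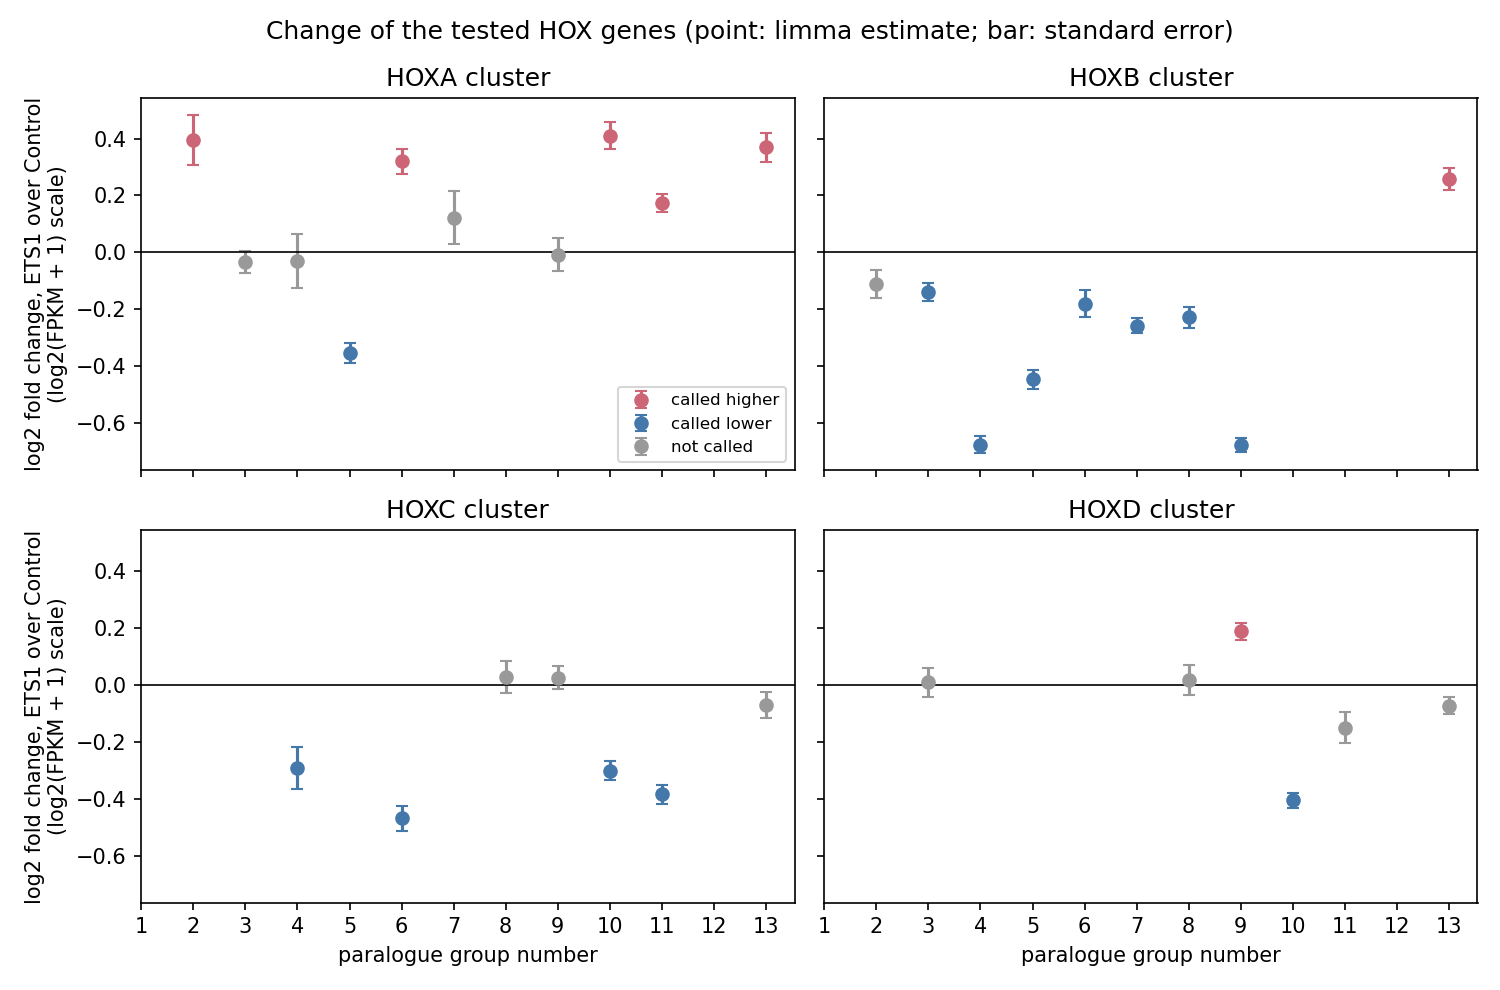
Log2 fold change of 32 tested HOX genes, ETS1 over Control, on the log2(FPKM + 1) scale (vertical axis) against paralogue group number, a panel per cluster; points are limma estimates, bars standard errors, and colours mark genes called higher, called lower or not called. HOXB2 to HOXB9 all lie below 0 while HOXB13 lies above it, and the HOXA cluster holds 5 of the 7 genes called higher.

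The HOXB cluster lies on the minus strand of chromosome 17 (48528526 to 48729178, GENCODE 29 on GRCh38), and most of its active genes fell. From HOXB2 to HOXB9, 7 of 8 genes were called lower, against 28.4% of all tested genes. All 8 had both ETS1 libraries below both Control libraries, against 38.9% of all tested genes. HOXB9 (48621159 to 48626356) had 246 and 246 FPKM in the Control libraries, against 154 and 154 in the ETS1 libraries. The replicates thus nearly coincide and the groups are far apart, with means of 246 ± 0.0281 and 154 ± 0.168 (SD, n = 2 each). The change was -0.68 (SE 0.0244, limma adjusted p 0.000436), and its FPKM fell by 37.6%. In the authors' deposited table the log2 fold change of HOXB9 is -0.70. HOXB4 (48575513 to 48580111), known for expanding blood stem cells, went from 13.3 and 13.2 FPKM to 7.97 and 7.93. It fell by 0.67 on the log2 scale (SE 0.0303, limma adjusted p 0.000474) with no overlap, and its FPKM fell by 40.2%. HOXB4 and HOXB9 are therefore the pair with the strongest falls among all tested HOX genes, and 4 genes of smaller change lie between them in the cluster.

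Those between were HOXB5 to HOXB8. HOXB5, a gene of vascular and enteric precursor cells, was at 38.4 and 39.0 FPKM in the Control libraries, against 28.8 and 27.5 in the ETS1 libraries (log2 fold change -0.45, limma adjusted p 0.000889). HOXB6 was at 17.5 and 16.9 against 14.5 and 15.7 FPKM (-0.18, 0.0248). Among the HOXB genes called lower, HOXB6 lost its call in the most alternatives, 4 of 15: its adjusted p was 0.0892 without the filter of 1 FPKM, and 0.0765 or 0.106 without Control library 1 or ETS1 library 1. For HOXB6, 33.0% of its exon bases are shared with HOXB3 or the antisense RNA HOXB-AS3. HOXB7 was at 34.5 and 35.1 against 28.7 and 29.2 FPKM (-0.26, 0.00193). HOXB8, which acts in myeloid progenitors, was at 15.9 and 16.7 against 13.6 and 13.9 FPKM (-0.23, 0.00608). In each of these 4 genes both ETS1 values were lower than both Control values.

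At the anterior end the falls were smaller. HOXB3 had 11.8 and 11.9 FPKM in the Control libraries, against 10.6 and 10.8 in the ETS1 libraries (-0.14, limma adjusted p 0.0155), a call lost without ETS1 library 1 (0.105) or ETS1 library 2 (0.0708). HOXB2, a hindbrain gene, had 10.5 and 10.9 against 9.43 and 10.3 FPKM and was not called (-0.11, 0.110). At the other end stands HOXB13, a prostate and hindgut gene set apart from the rest of the cluster by a long gap, with 3.90 and 4.03 FPKM in the Control libraries, against 4.93 and 4.95 in the ETS1 libraries. HOXB13 was called higher (0.26, 0.00481) and was the single HOXB gene to rise. The median log2 fold change over the 9 tested HOXB genes was -0.23, while all tested genes on chromosome 17 had a median of 0.02.

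In the HOXA cluster, on the minus strand of chromosome 7 (27092993 to 27200106), 5 of 11 genes were called higher, and 1, its most abundant member, lower. The other 5 were not called. Over all tested genes 30.7% were called higher and 28.4% lower. HOXA5 (27141052 to 27143668) had 82.4 and 80.1 FPKM in the Control libraries, against 61.8 and 64.9 in the ETS1 libraries. It fell by 0.35 on the log2 scale (SE 0.0351, limma adjusted p 0.00156), with no overlap, and was the only HOXA gene called lower by limma. The 5 HOXA genes called higher were HOXA2, HOXA6, HOXA10, HOXA11 and HOXA13, on both sides of HOXA5.

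HOXA10 (27170591 to 27180261), needed in the uterus and in limb and blood development, had 10.7 and 10.2 FPKM in the Control libraries, against 13.7 and 14.8 in the ETS1 libraries. Both ETS1 values were above both Control values, and the change of 0.41 (SE 0.0480, limma adjusted p 0.00238) was the largest rise among the tested HOX genes on the log2(FPKM + 1) scale. By the ratio of mean FPKM, HOXA2 (1.43) and HOXA13 (1.38) rose more than HOXA10 (1.36). For HOXA10, 26.3% of its exon bases are shared with AC004080.3 on the same strand or HOXA10-AS on the other. HOXA13, a gene of digits and hindgut, had 3.10 and 3.39 against 4.43 and 4.53 FPKM (0.37, 0.00366). HOXA11, a forearm and uterus gene, had 13.3 and 13.4 against 14.9 and 15.4 FPKM (0.17, 0.00905). The authors' deposited table gives HOXA11 an adjusted p of 0.0629, and without ETS1 library 2 limma gave 0.0685. For HOXA11, 31.1% of its exon bases are shared with HOXA11-AS on the other strand, which itself rose from 8.33 and 8.41 to 10.2 and 10.2 FPKM. HOXA9, a gene of blood progenitors that neighbours HOXA10, had 30.2 and 26.8 FPKM in the Control libraries, against 28.1 and 28.5 in the ETS1 libraries. Its groups overlapped and it was not called (-0.01, 0.920).

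Further forward, HOXA6 rose from 7.28 and 7.64 FPKM to 9.31 and 9.82 (0.32, limma adjusted p 0.00358). For HOXA6, 39.3% of the exon bases are shared with HOXA-AS3 on the other strand, a transcript listed at 0.622 and 0.660 FPKM in the Control libraries, against 1.02 and 1.05 in the ETS1 libraries. HOXA2, which patterns the second pharyngeal arch, rose from 2.97 and 2.50 to 4.17 and 3.64 FPKM (0.40, 0.0155). That call was lost without the filter, over the 35055 genes above 0 in at least 1 library (adjusted p 0.0789), and without ETS1 library 1 (0.0612). HOXA3, HOXA4 and HOXA7 also overlapped between the groups and were not called. HOXA3 was at 6.58 and 6.29 FPKM in the Control libraries, against 6.16 and 6.37 in the ETS1 libraries. HOXA4 was at 2.50 and 2.02 against 2.04 and 2.33 FPKM, and HOXA7 at 1.66 and 1.37 against 1.89 and 1.58. Other gene models share 47.3% of the exon bases of HOXA4 and 62.5% of those of HOXA7. Over the 11 HOXA genes, 5 were called higher, 1 lower and 5 neither, beside 30.7% higher and 28.4% lower over all tested genes, with a median log2 fold change of 0.12, while all tested genes on chromosome 7 had a median of -0.01.

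In the HOXC cluster, on the plus strand of chromosome 12 (53938765 to 54056030), 4 of 7 tested genes were called lower and 0 higher, beside 28.4% lower and 30.7% higher over all tested genes. HOXC6, a thoracic and mammary gene, had 14.8 and 14.6 FPKM in the Control libraries, against 9.97 and 10.8 in the ETS1 libraries. It fell by 0.47 on the log2 scale (SE 0.0445, limma adjusted p 0.00143), with no overlap. HOXC11 had 10.1 and 10.4 against 7.63 and 7.62 FPKM (-0.38, 0.00112). HOXC10, a gene of lumbar motor neurons, had 25.6 and 24.6 against 19.97 and 20.4 FPKM (-0.30, 0.00205). The weakest call was HOXC4, at 2.11 and 2.30 against 1.49 and 1.75 FPKM (-0.29, 0.0228), which lost it without the filter (adjusted p 0.0917), without Control library 2 (0.0801) and without ETS1 library 1 (0.0939). All 4 had both ETS1 values below both Control values.

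The remaining HOXC genes were not called. HOXC9, a thoracic motor neuron gene, had 27.9 and 29.8 FPKM in the Control libraries, against 29.2 and 29.6 in the ETS1 libraries (0.03, limma adjusted p 0.606). HOXC8 had 4.43 and 4.12 against 4.55 and 4.20 FPKM (0.03, 0.685). In both genes the groups overlapped. HOXC13, a hair and nail gene, had 6.14 and 5.88 against 5.87 and 5.49 FPKM (-0.07, 0.244), and the ETS1 values lay below the Control values. The median over the 7 tested HOXC genes was -0.29, against 0.07 for the tested genes of chromosome 12. By paralogue number HOXC8 and HOXC9 fall between HOXC6 and HOXC10, which were called lower. On the chromosome both lie within the GENCODE 29 model of HOXC6 (53990624 to 54030823), and 15.7% of the exon bases of HOXC6 are shared with HOXC4, HOXC5 or HOXC9. Whether HOXC8 and HOXC9 differ in their change from the genes called lower was not tested.

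The HOXD cluster, on the plus strand of chromosome 2 (176092891 to 176190907), had 1 gene called in each direction among 6 tested. Over all tested genes 30.7% were called higher and 28.4% lower. HOXD10 (176108790 to 176119942), which specifies lumbar motor neurons, had 41.0 and 41.6 FPKM in the Control libraries, against 31.2 and 30.7 in the ETS1 libraries. It fell by 0.41 on the log2 scale (SE 0.0269, limma adjusted p 0.000704). Its neighbour HOXD9 rose from 21.2 and 20.8 to 24.4 and 23.8 FPKM (0.19, 0.00563), so that adjacent genes with separate ranges moved in opposite directions. HOXD11 had 7.24 and 6.66 against 5.95 and 6.36 FPKM and missed the threshold (-0.15, 0.0643). It was called lower in 5 of 15 alternatives, among them median-ratio scaling (0.0446), quantile normalization (0.0184), removal of the chromosome median (0.0118) and the fit without Control library 2 (0.0384). HOXD13, a digit gene and the most abundant of the cluster, had 44.1 and 45.1 against 43.0 and 41.7 FPKM and was not called (-0.07, 0.0949). HOXD3 and HOXD8 overlapped between the groups, at 2.88 and 2.67 against 2.80 and 2.79 FPKM and at 5.70 and 5.21 against 5.40 and 5.66 FPKM. Other gene models share 74.1% of the exon bases of HOXD3. All tested genes of chromosome 2 had a median log2 fold change of 0.09.

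Sorted by position along the body axis, most genes called lower lay in the middle of the clusters. In paralogue groups 4 to 8, 8 of 13 tested genes were called lower and 1 higher. The genes called lower there were HOXB4 to HOXB8, counted above with their cluster, and HOXA5, HOXC4 and HOXC6. This count and that of the HOXB cluster are thus not separate observations. In groups 9 to 13, 4 of 14 were called lower and 5 higher, and in groups 1 to 3, 1 of 6 in each direction. Over all tested genes 28.4% were called lower and 30.7% higher, so the counts in groups 9 to 13 lay near that background. Whether these shares differ between the regions was not tested. Within paralogue groups the members parted ways. In group 10, HOXC10 and HOXD10 were called lower while HOXA10 was called higher. In group 6, HOXB6 and HOXC6 were called lower and HOXA6 higher. In group 9, HOXB9 was called lower and HOXD9 higher, with HOXA9 and HOXC9 not called. In group 13, HOXA13 and HOXB13 were called higher, and 0 of the 4 members lower. Group 5 was the one group with more than 1 tested member in which each tested member was called lower, HOXA5 and HOXB5.

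The summed HOX level was lower in the ETS1 libraries. FPKM is per gene length, so levels of different genes can be added. The 39 genes summed to 774.8 and 769.6 FPKM in the Control libraries, against 618.3 and 624.6 in the ETS1 libraries, a change of -19.5%. HOXB supplied most of that difference, with 392.3 and 394.2 against 272.2 and 274.2 FPKM, a change of -30.5%. Its part of the HOX total was 50.6% and 51.2% in the Control libraries, against 44.03% and 43.9% in the ETS1 libraries. Without HOXB9, the remaining 38 genes summed to 528.4 and 523.1 against 464.6 and 470.7 FPKM, a change of -11.1%. HOXA summed to 168.0 and 160.3 against 153.3 and 158.3 FPKM, HOXC to 91.3 and 91.9 against 78.9 and 80.1, and HOXD to 123.2 and 123.1 against 113.9 and 112.1. With HOXA5 left out, the HOXA sum was 85.7 and 80.2 FPKM in the Control libraries, against 91.4 and 93.4 in the ETS1 libraries, so its order turns on that 1 gene. With 2 libraries per group an exact permutation test cannot give a two-sided p under 0.333, and the sums are given as a description.

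**Figure D3:**
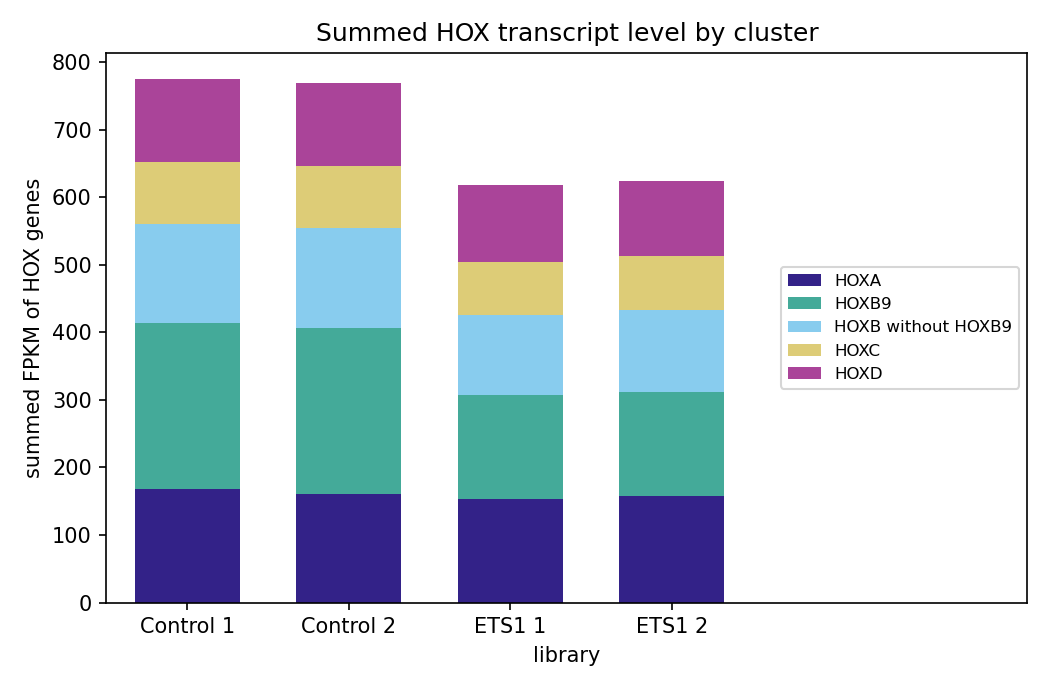
Summed FPKM of the HOX genes in each library (vertical axis, from 0), stacked by cluster with HOXB9 drawn apart from the rest of HOXB. The ETS1 bars end at 618.3 and 624.6, below the Control bars at 774.8 and 769.6, and the HOXB9 segment shrinks from 246 to 154.

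The order of the genes was little changed. HOXB9, HOXA5, HOXD13 and HOXD10 held ranks 1 to 4 in both groups. HOXB5 went from rank 5 to 8 and HOXB4 from 15 to 19, while HOXA10 went from rank 18 to 13. The 6 genes under 1 FPKM in the Control libraries were also the 6 lowest in the ETS1 libraries, so 0 of the near-silent genes joined the active ones.

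RNAs transcribed within the clusters included a larger change than that of any HOX gene. The list of cluster RNAs held 30 names, 23 of which were found, and 12 passed the filter, with 3 called higher, 3 lower and 6 not called. Over all tested genes 30.7% were called higher and 28.4% lower. HOXB-AS3 (chromosome 17, 48549630 to 48606414, plus strand), a long RNA antisense to HOXB5 and HOXB6 that also encodes a small peptide, had 31.9 and 33.1 FPKM in the Control libraries, against 14.2 and 14.8 in the ETS1 libraries. It fell by 1.12 on the log2 scale (SE 0.0366, limma adjusted p 0.000417), with no overlap. HOXD-AS1, also called HAGLR, fell from 5.02 and 4.75 to 3.13 and 3.31 FPKM (-0.48, 0.00159). HOXB-AS4 overlapped between the groups, at 0.964 and 2.00 against 1.83 and 3.18 FPKM, and was not called (0.50, 0.171). Whether counting used the strand is not given in the sources used here, and without it reads of HOXB-AS3 and of the HOXB genes it overlaps cannot be told apart.

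MicroRNA loci of the miR-10 and miR-196 families lie among the HOX genes, and miR-196 is known to bind HOX transcripts. The MIR196A1 locus, between HOXB9 and HOXB13, was called higher on few reads, and any link to the HOXB changes was not tested. Mature sequences of these families are shown for reference. They were copied from RefSeq (GRCh38.p14), with the seed at bases 2 to 8 in capitals. miR-196a-5p and miR-196b-5p share a seed, and miR-10a-5p has another.
hsa-miR-196a-5p: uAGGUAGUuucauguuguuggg
hsa-miR-196b-5p: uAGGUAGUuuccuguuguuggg
hsa-miR-10a-5p: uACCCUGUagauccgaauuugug

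The mature microRNAs were not measured by these libraries. The MIR196A1 locus had 6 and 2 reads in the Control libraries, against 16 and 13 in the ETS1 libraries, a log2 fold change of 1.03 (limma adjusted p 0.0391). That call rests on few reads and was lost with a pseudocount of 0.1 (adjusted p 0.0548), without the filter (0.158) and without ETS1 library 1 (0.115) or ETS1 library 2 (0.0731). The complement of the miR-196 seed, ACTACCT, occurs in the longest annotated 3′ UTR of 9 of 39 HOX genes (23.1%), and in 7.15% of 19132 genes. Among them are HOXA5, HOXA7, HOXA9, HOXB1, HOXB6, HOXB7, HOXB13 and HOXC8, with 4 copies in HOXA7. Of the 8 that were tested, 3 were called lower, 1 higher and 4 not called, beside 28.4% lower and 30.7% higher over all tested genes. The complement of the miR-10 seed, ACAGGGT, occurs in 3 of 39 (7.69%), against 12.8% of all genes. HOXB8 carries an almost full-length complement of miR-196a-5p at bases 411 to 432 of its 3′ UTR. It pairs at 21 of 22 bases and forms a G:U pair at the remaining 1, here with the part opposite the seed in capitals, from the GENCODE 29 transcript.
HOXB8 site: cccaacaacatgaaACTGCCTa

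ETS proteins bind DNA at a GGAA core, so the promoters of HOX genes were searched for it. RefSeq windows (GRCh38.p14) of 250 bases before the start were found for 20 of the 39 genes, which are 9 of HOXA, 8 of HOXD, HOXB1, HOXC4 and HOXC5. HOXC4 and HOXC5 share 1 window, and the genes from HOXB2 to HOXB9 are not among the 20. For a gene with several windows, only the first listed was counted. Several windows lie wholly in annotated exons, such as those of HOXA11, HOXC4 and HOXD4. On either strand GGAA occurred in 16 of these 20 (80%), against 92.8% of 27305 promoters. The longer forms CCGGAA and CCGGAAGT, which contain that core, occurred in 0 of 20, against 14.8% and 3.64% of all promoters. The match describes letters only and says nothing of binding. The windows of 3 HOXA genes are printed as examples, 5′ to 3′ on the minus strand, with GGAA or its complement TTCC in capitals. HOXA6 (chr7:27147775-27148024) was called higher and has 0 copies, HOXA9 (chr7:27165538-27165787) was not called and has 1, and the downstream start of HOXA10 (chr7:27174321-27174570) belongs to a gene called higher and has 1. The window of the upstream HOXA10 start (chr7:27179862-27180111), which lies in annotated exons and is not printed, has 5.
HOXA6: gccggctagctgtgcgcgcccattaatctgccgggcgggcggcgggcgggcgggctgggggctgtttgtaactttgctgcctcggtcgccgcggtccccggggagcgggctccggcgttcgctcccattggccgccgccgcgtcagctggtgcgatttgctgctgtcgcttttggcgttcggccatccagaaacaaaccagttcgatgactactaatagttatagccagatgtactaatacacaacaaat
HOXA9: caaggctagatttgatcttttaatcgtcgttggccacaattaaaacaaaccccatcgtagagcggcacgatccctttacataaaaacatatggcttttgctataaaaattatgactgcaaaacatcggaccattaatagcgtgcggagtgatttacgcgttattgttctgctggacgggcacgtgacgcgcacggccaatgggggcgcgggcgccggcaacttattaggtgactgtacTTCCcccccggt
HOXA10: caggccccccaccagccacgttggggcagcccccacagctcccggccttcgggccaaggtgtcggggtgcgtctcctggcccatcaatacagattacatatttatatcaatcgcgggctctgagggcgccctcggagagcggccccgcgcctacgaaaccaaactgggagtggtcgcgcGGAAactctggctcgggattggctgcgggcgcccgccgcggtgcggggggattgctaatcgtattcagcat

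The TALE cofactors changed member by member. All 11 in the list were tested, with 3 called higher, 4 lower and 4 not called. Beside them, 30.7% of all tested genes were called higher and 28.4% lower. PBX3, a HOX partner, fell from 12.97 and 11.8 to 10.0 and 10.2 FPKM (-0.27, limma adjusted p 0.0101), a call lost without the filter (0.0518). MEIS2 fell from 5.55 and 5.68 to 3.75 and 3.85 FPKM (-0.46, 0.00107). TGIF1, a TALE repressor, rose from 2.11 and 1.90 to 2.86 and 2.87 FPKM (0.36, 0.00499). The summed level of the 11 cofactors was 83.6 to 86.7 FPKM in the Control libraries, against 84.0 to 84.1 in the ETS1 libraries, so their total stayed within the Control range.

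Genes of the chromatin complexes that hold HOX clusters shut or open also went both ways. Of 19 Polycomb genes tested, 6 were called higher, 4 lower and 9 neither, beside 30.7% higher and 28.4% lower over all tested genes. PHC1, a subunit of the first Polycomb complex, rose from 5.60 and 5.97 FPKM to 8.63 and 8.27 (0.48, limma adjusted p 0.00139), and its paralogue PHC2 fell from 17.0 and 16.9 to 13.6 and 13.5 (-0.30, 0.00142). SUZ12, a subunit of the second complex, rose from 11.7 and 10.1 to 13.1 and 14.6 FPKM (0.31, 0.0256), but not without the filter (0.111), Control library 2 (0.0571) or ETS1 library 2 (0.0963). BMI1 was at 20.3 and 16.1 against 20.8 and 25.0 FPKM and was not called (0.32, 0.0951), though it passed without Control library 1 (0.0244) and by voom on recovered reads (0.0119). A list of trithorax, H3K27 demethylase and related chromatin genes had 12 tested, of which 5 were called higher (KMT2A, PSIP1, DOT1L, KDM6A and CTCF) and 3 lower. Those 3 were WDR5, DPY30 and ASH2L, core subunits of the complexes that methylate histone H3 at lysine 4. Another core subunit, RBBP5, was not called, at 9.44 and 9.73 against 10.2 and 10.5 FPKM (0.10, 0.0677), and the methyltransferase KMT2A was called higher (0.19). RBBP5 and the genes called higher other than CTCF were named after their values were seen. WDR5 fell from 37.0 and 36.8 to 27.9 and 28.0 FPKM (-0.39, 0.000702), DPY30 by 0.34 and ASH2L by 0.26 on the log2 scale. The ASH2L call was lost once the median of its chromosome was removed (adjusted p 0.0992). CTCF, which marks borders inside HOX clusters, rose from 16.8 and 16.3 to 19.2 and 20.2 FPKM (0.24, 0.00527).

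Among upstream inducers, ALDH1A2 and CYP26A1, both enzyme genes of retinoic acid metabolism, had the largest changes. Of 15 genes listed, 10 were tested, with 1 called higher, 4 lower and 5 neither. ALDH1A2, which makes retinoic acid, had 17.3 and 16.8 FPKM in the Control libraries, against 8.21 and 8.13 in the ETS1 libraries. It fell by 0.98 on the log2 scale (SE 0.0320, limma adjusted p 0.000417), with no overlap. CYP26A1, which degrades retinoic acid and is itself a retinoid target, fell from 2.50 and 2.02 to 1.29 and 1.20 FPKM (-0.53, 0.00647), while its paralogue CYP26B1, named after its values were seen, was not called (-0.05, 0.310). RARB, a retinoic acid receptor and retinoid target, rose from 3.73 and 3.33 to 4.90 and 4.90 FPKM (0.38, 0.00426). GDF11, a signal for posterior HOX genes, fell from 4.93 and 4.92 to 3.97 and 3.92 FPKM (-0.26, 0.00411). These lists were assembled with earlier results of these data known, and their counts lie in both directions beside a background of 30.7% higher and 28.4% lower.

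**Figure D4:**
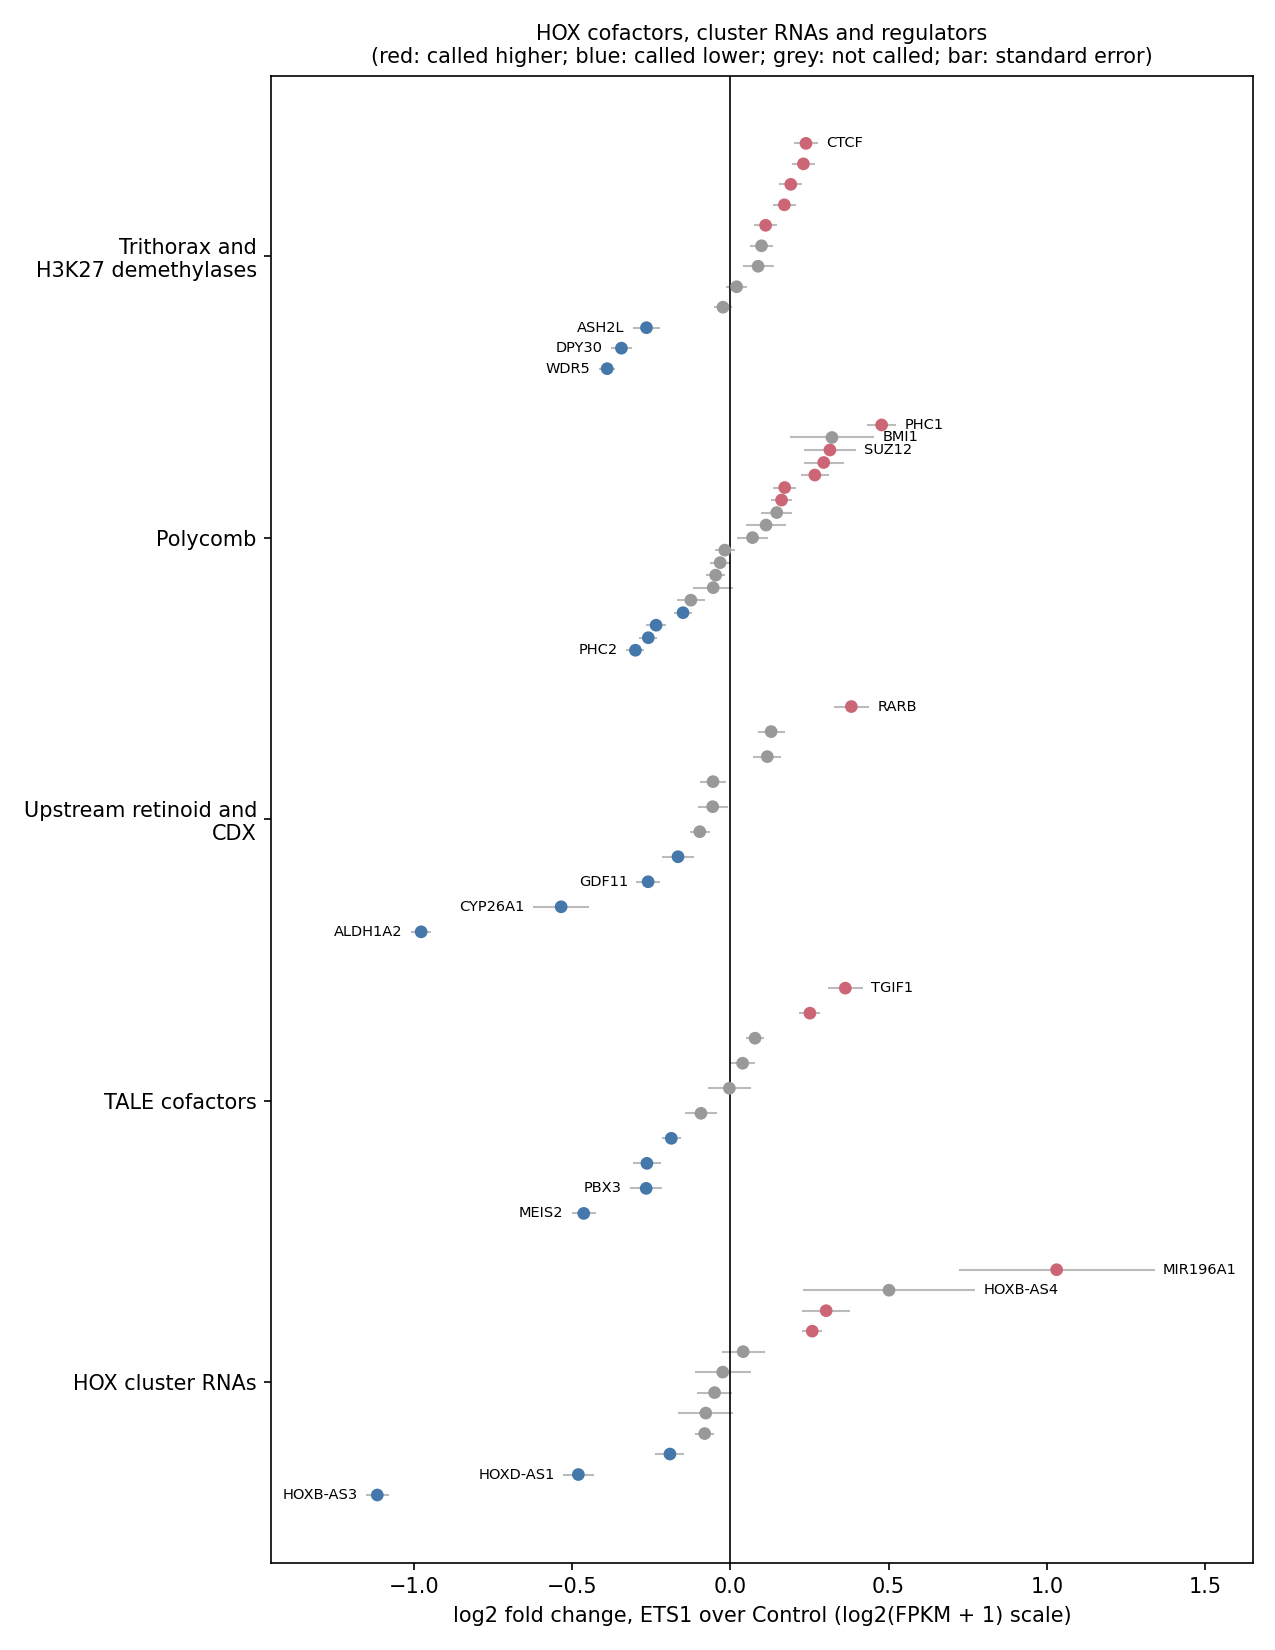
Log2 fold change, ETS1 over Control, on the log2(FPKM + 1) scale (horizontal axis) of tested genes of 5 lists; points are limma estimates, bars standard errors, red called higher, blue called lower and grey not called, with some of the largest changes of each list named. HOXB-AS3 at -1.12 and ALDH1A2 at -0.98 lie farthest to the left, and MIR196A1 at 1.03 farthest to the right with a wide bar.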

How the data were processed

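The FPKM of each gene in each library was deposited by the authors, per the file headers. The authors also deposited a comparison of 16652 genes with a mean normalized count, used here as a signal to recover reads, and with a log2 fold change, its standard error, a p-value and an adjusted p-value, all computed by the authors per the file headers. The submitters' processing notes name HISAT2, HTSeq, DESeq2 and the build hg38. Versions, annotation and use of strand are not given in the sources used here.

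Here, limma 3.58.1 in R 4.3.3 was fitted to log2(FPKM + 1) over all 4 libraries for 14306 genes with a mean of at least 1 FPKM (25.7% of those listed), with a group term, an intensity trend and 2 residual plus 2.84 prior degrees of freedom. P-values are two-sided and adjusted by Benjamini-Hochberg over the 14306 genes, and with 2 libraries per group they lean on a variance model shared by all genes. The added 1 FPKM makes fold changes of low genes too small. The design allowed for a count test if counts were deposited. The values were FPKM, so limma was used. Low values are whole multiples of what 1 read is worth, which gave each library's depth and reads: 99.6% of the values of the authors' deposited comparison lay within 0.001 of a whole read. The chi-square between replicates averaged 3.94 per gene in each group, above counting noise. Intervals of counting error were not computed. Depth limits the genes under 1 FPKM and some above it with few reads, such as MIR196A1 (2 to 16 reads per library) and PRAC1 (7 to 32).

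Gene positions, exon sharing and 3′ UTRs came from a match of names to GENCODE 29 on GRCh38. The FPKM imply other gene models for some genes, as for HOXC8, with 3369 bases against 1889 in GENCODE. The rule names every HOX gene, and of each further list at most the 4 tested members with the largest absolute change. Single values of 3 genes, a HOX gene among them, are not reported here, though they stay in counts and sums. The members and lists were chosen with earlier results of these data known. HOXD-AS2 was made an entry of its own after the gene names were seen. Alternatives were other filters, a pseudocount of 0.1, quantile normalization, median-ratio scaling, a replicate block, voom on recovered reads, the authors' values, removal of chromosome medians and leaving out each library. The fit was tested on simulated data.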

Additional observations from a re-analysis of the deposited data

How the results depend on the processing

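Of the 20 HOX calls, 15 kept their direction and side of the threshold under each of the 15 alternatives in which they were tested. The exceptions were HOXA2, HOXA11, HOXB3, HOXB6 and HOXC4. HOXB6 lost its call in 4 alternatives, HOXC4 in 3 and the others in 2 each, most of them fits without 1 library. The sizes of calls that were kept still moved. Across the alternatives the log2 fold change ranged from -0.70 to -0.45 for HOXB9 and from -0.39 to -0.19 for HOXA5. For HOXD9 it ranged from 0.10 to 0.25. With a stricter filter of 5 FPKM fewer genes are tested, and 4 HOX genes and 2562 of all genes were called higher. With voom on the recovered reads, 7 HOX genes were called higher and 13 lower, and 4819 and 4277 of all genes. Leaving out 1 library gave 6 to 7 HOX genes higher and 10 to 13 lower, and 2845 to 3962 of all genes higher and 2945 to 3720 lower. In these fits the lone library is assumed to vary like the other group.

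Signs turned only for genes that were not called. Quantile normalization gave HOXA9 0.0777, HOXC8 -0.0303, HOXD3 -0.0312, HOXD8 -0.0425 and HOXD13 0.0323. Removing the chromosome median gave HOXC8 -0.0458, HOXC9 -0.0479, HOXD3 -0.0782 and HOXD8 -0.0692, and called 16 HOX genes lower, HOXC13, HOXD11 and HOXD13 among them. HOXD3 was at -0.0058 with median-ratio scaling and at -0.0100 in the authors' deposited table, which gives HOXD8 -0.0022. Leaving out 1 library gave ranges of -0.138 to 0.0772 for HOXA4, -0.0894 to 0.0739 for HOXA9, -0.0186 to 0.0744 for HOXC8, -0.0210 to 0.0725 for HOXC9, -0.0320 to 0.0495 for HOXD3, -0.0366 to 0.0721 for HOXD8 and -0.120 to 0.0515 for GBX1. The cause of these changes was not tested.

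The replicate numbers of the 2 groups share only a number: deviations of same-numbered libraries correlated at -0.0456 over all tested genes and -0.118 over those with at least 5 FPKM. With the number as a replicate block, 7 HOX genes were called higher and 12 lower, and 3712 and 3571 of all genes. In that fit HOXB6 (adjusted p 0.0505) and SUZ12 (0.0505) were not called, and HOXB-AS4 was called higher (0.00798). A crossed pairing, added after seeing the data, gave 7 and 14, and 4488 and 4189.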

Other observations

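Genes beside the HOX clusters were tested as a list of 19, of which 14 passed the filter, 6 were called higher, 3 lower and 5 neither, beside 30.7% higher and 28.4% lower over all tested genes. CALCOCO1, next to HOXC, rose from 10.2 and 10.2 FPKM to 15.0 and 14.6 (log2 fold change 0.50, limma adjusted p 0.000648), and CBX5, on the other side of that cluster, rose from 11.8 and 11.7 to 15.4 and 15.3 (0.36, 0.00101). MTX2, next to HOXD, fell from 63.0 and 62.7 to 45.7 and 44.2 FPKM (-0.47, 0.000623). PRAC1, between HOXB9 and HOXB13, had 0.454 and 1.01 against 1.37 and 1.48 FPKM and was called higher (0.50, 0.0483), a call lost in 8 of 13 alternatives with an adjusted p, at 0.0508 to 0.173, among them the fits without Control library 1 (0.0508), ETS1 library 1 (0.102) or ETS1 library 2 (0.139).

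Homeobox genes outside the clusters that are close relatives of HOX genes were mostly silent, with 4 of 10 tested. MNX1, a motor neuron and pancreas gene, fell from 11.2 and 11.4 FPKM to 6.82 and 6.88 (-0.65, limma adjusted p 0.000486). PDX1, a pancreas gene of the ParaHOX group, fell from 2.79 and 3.36 to 2.00 and 1.92 FPKM (-0.46, 0.00785), and GBX2 rose from 1.24 and 1.12 to 1.79 and 1.67 (0.32, 0.0109), though not without the filter on low values (0.0509) or without ETS1 library 1 (0.0620). GBX1 overlapped between the groups and was not called. CDX2, an intestinal gene that acts upstream of HOX genes and was outside the rule for named genes, had 8.66 and 8.80 against 8.05 and 8.15 FPKM, and was not called (-0.10, 0.0531).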
